A study of Mus musculus with 6 samples.

Results

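Vps genes take their name from vacuolar protein sorting, the yeast screen in which many of the proteins that route cargo to the vacuole or lysosome were found. The members described here were chosen by gene symbol alone: every row of the deposited table whose mouse symbol begins with Vps and a digit. No measured value entered that rule, but the set was picked with earlier results of these data known, so its counts are descriptions. The rule found 34 of the 23644 listed genes. The annotation holds 35 such symbols, and the remaining one, Vps28, was not analysed here.

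RNA of the mouse mammary tumour line 4T1 was sequenced in 3 control libraries labelled wild type and 3 libraries labelled Carmil3 knockout. Carmil3 belongs to a family of proteins that bind actin capping protein. Both groups were grown in the same medium with no other treatment named, and the knockout cells were grown out of single cells. The labels state neither the number of clones, nor how the knockout was made, nor whether the 3 libraries of a group were separate cultures. The p-values therefore measure only the spread between these libraries, which may be technical, and a difference between clones and an effect of the knockout cannot be told apart. The question was which transcripts differ between the groups.

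Values are FPKM, read counts scaled to exon length and library size. For most genes the length that matched was that of all annotated exons together, which can exceed a single transcript. Which transcripts the cells made was not examined, so levels and shares compared between genes depend on these lengths. The spacing of the values gave library totals between 17779131 and 19046816 reads. The targeted gene, Carmil3, was barely detected. Control libraries 1 to 3 held 0.0360, 0.0246 and 0.0117 FPKM of it, and knockout libraries 0, 0.0118 and 0.0241 FPKM, at most 4 reads each, so its level does not check the labels. Summed levels of 5 epithelial markers lay between 984 and 1074 FPKM in control and between 428 and 473 FPKM in knockout libraries, nearly all of it from Krt8 and Krt18. Epcam, at 19.6 to 19.7 FPKM in control, was at 0.0270 to 0.132 FPKM in knockout libraries. Of 4 leukocyte markers 3 had a row and summed to between 2.51 and 3.40 FPKM over the 6 libraries, nearly all of it Cd68, with Ptprc at or below 0.00614 FPKM. Pecam1 and Cdh5, the endothelial markers with a row, summed to at most 0.0572 FPKM. The 4 fibroblast markers summed to 11.4 to 12.01 FPKM in control and 17.8 to 18.3 FPKM in knockout libraries, most of it Pdgfra. Col1a1 of the same list went the other way, from 1.36 to 1.74 FPKM in control to 0.252 to 0.296 FPKM in knockout libraries. The part of the differing epithelial, Pdgfra and Col1a1 levels in the results below was not tested. In bulk RNA, fewer cells of a type and less RNA per cell cannot be told apart.

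VPS proteins work in a handful of complexes along the route from the early endosome to the lysosome. Retromer and the related retriever pull cargo out of endosomes for recycling, and the ESCRT machinery sorts ubiquitinated cargo into inward-budding vesicles. CORVET and HOPS tether endosomes and lysosomes before fusion, GARP tethers vesicles returning from endosomes to the Golgi, and EARP, which shares most subunits with GARP, acts in endosomal recycling. VPS13 proteins are long bridges that move lipids between membranes.

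Of the 34 Vps genes 32 had at least 1 FPKM in at least 3 libraries and were tested, by limma on log2(FPKM + 1) over 11171 genes with Benjamini-Hochberg adjustment. At an adjusted p under 0.05, 9 were lower and 1 was higher in the knockout libraries. Among all genes tested 18.7% were called lower and 16.9% higher. The lower members were Vps35 of retromer, Vps4a, Vps4b and Vps36 of the ESCRT machinery, Vps51, Vps53 and Vps54 of GARP, Vps13b, and Vps9d1, which was placed in no complex. Vps72 was the higher one. Groups did not overlap for 12 tested members on the lower side, against 26.4% of all tested genes, and for 2 on the higher side, against 24.2%. The median log2 change over the tested members was -0.10, and over all genes tested it was -0.01.

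Changes were small throughout, from -0.49 for Vps13b to 0.26 for Vps72 on the log2(FPKM + 1) scale, and no Vps gene passed a test against a 1.5-fold change. Neighbouring genes were lower or higher along with several members. Chromosome 8 carries 5 of the tested members, Vps35, Vps36, Vps37a, Vps4a and Vps9d1, and all 5 had every knockout library below every control library. The median log2 change of the 617 tested genes of chromosome 8 was -0.21. Each gene was therefore also centred on its neighbours, by taking off the median change of 20 tested genes to its left and 20 to its right. That median came from the same libraries and was taken off as a fixed value, so the centred p-values leave out its error. After centring, 3 members were called lower, Vps36, Vps4b and Vps51, and none was called higher. For Vps72 limma gave an adjusted p of 0.254. The share of all tested genes called after centring was not counted, so these 3 stand without a background share.

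**Figure D1:**
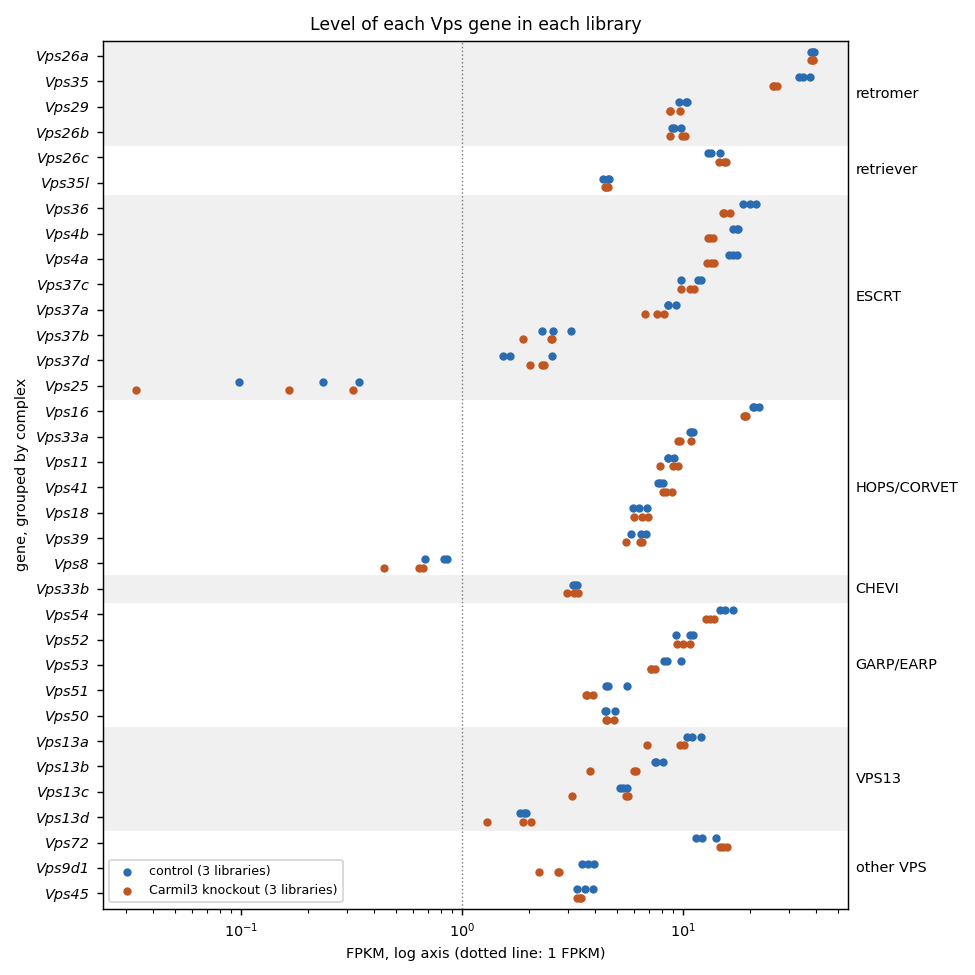
FPKM of the 34 Vps genes (log axis) in the 3 control libraries and the 3 Carmil3 knockout libraries, 1 point per library, grouped by complex and ordered by the control mean. Vps26a and Vps35 of retromer are the most abundant, Vps25 and Vps8 lie below 1 FPKM, and the 2 groups of points stand apart for Vps35, Vps36, Vps4a and Vps4b.

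Retromer consists of VPS35, the scaffold, VPS29, which binds its far end and recruits regulators, and VPS26, which contacts sorting nexins and exists as the products of Vps26a and Vps26b. Vps35 (ENSMUSG00000031696, chromosome 8, 85260392 to 85299802, GRCm38) was the retromer gene that fell. It measured 34.7, 37.6 and 33.3 FPKM in control replicates 1 to 3 and 25.5, 25.8 and 26.5 FPKM in knockout replicates 1 to 3. Every knockout library lay below every control library. The means were 35.2 ± 2.17 and 25.9 ± 0.550 FPKM (SD, n = 3), a log2 change of -0.43 with a standard error of 0.058 and a limma adjusted p of 0.000760. The neighbours of Vps35 had a median log2 change of -0.30; centred on them the change was -0.13, with a limma adjusted p of 0.138.

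Vps26a, the most abundant Vps gene, showed no such difference. It was at 37.7, 39.2 and 38.9 FPKM in control and 38.6, 38.9 and 38.1 FPKM in knockout libraries, with overlapping groups, a log2 change of -0.00 (standard error 0.047) and a limma adjusted p of 0.961. Annotated exon lengths were 8899 bases for Vps35 and 2860 bases for Vps26a. Per exon base, Vps35 made up 47.7% ± 1.41 of the sum of Vps35 and Vps26a in control and 40.2% ± 0.708 in knockout libraries (SD, n = 3). For that share an exact permutation test (two-sided) gave p = 0.1, the smallest that 3 against 3 libraries allow. Vps29 was at 10.3, 9.60 and 10.4 FPKM in control and 8.71, 8.73 and 9.66 FPKM in knockout libraries, a log2 change of -0.14 that was not called (adjusted p = 0.107, limma). Without knockout replicate 3, the highest of the knockout libraries for Vps29, the log2 change was -0.19 and the limma adjusted p 0.0321. Vps26b was the minor VPS26 gene, with 19.4% ± 1.06 of the sum of both in control and 19.9% ± 1.20 in knockout libraries (SD, n = 3; exact permutation p = 0.7).

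Retriever, the retromer-like complex, pairs VPS35L and VPS26C with the shared VPS29. Vps26c was at 13.3, 13.03 and 14.7 FPKM in control and 15.3, 14.6 and 15.7 FPKM in knockout libraries, with overlapping groups (log2 change 0.14, limma adjusted p = 0.117). Vps35l lay between 4.36 and 4.61 FPKM in all 6 libraries (log2 change -0.01, limma adjusted p = 0.930). Set beside Vps35, the Vps35l share of the sum of both was 11.4% ± 0.905 in control and 14.7% ± 0.0575 in knockout libraries (SD, n = 3), with the exact permutation p at its floor of 0.1.

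In the ESCRT machinery, ESCRT-I and ESCRT-II bind ubiquitinated cargo and start the vesicle, and the ATPases VPS4A and VPS4B take the ESCRT-III filaments apart. Of 7 tested members 3 fell: both ATPase genes and Vps36, whose product is the ubiquitin-binding subunit of ESCRT-II. Vps4a measured 17.6, 16.1 and 16.8 FPKM in control and 13.4, 12.8 and 13.8 FPKM in knockout libraries. For Vps4b the values were 17.6, 17.8 and 16.8 FPKM in control and 12.99, 13.2 and 13.7 FPKM in knockout libraries. The paralogues were therefore near equal in FPKM, and the groups of neither overlapped. That equality rests on annotated exon lengths of 2522 bases for Vps4a and 8905 bases for Vps4b. Reads per library were 597 to 806 for Vps4a and 2178 to 2842 for Vps4b. Vps4b contributed 50.8% ± 1.43 of their sum in control and 49.9% ± 0.816 in knockout libraries (SD, n = 3; exact permutation p = 0.5).

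Vps4a, on chromosome 8 (107031222 to 107045755), changed by -0.32 (standard error 0.057, limma adjusted p = 0.00339) and its neighbours by a median of -0.24, and its call was lost on centring (log2 change -0.08, limma adjusted p = 0.351). Vps4b, on chromosome 1 (106764071 to 106796728), changed by -0.36 (standard error 0.053, limma adjusted p = 0.00115) and its neighbours by -0.17. It remained called after centring, at a log2 change of -0.19 (limma adjusted p = 0.0311). Vps36 measured 20.1, 21.4 and 18.7 FPKM in control and 15.1, 15.2 and 16.3 FPKM in knockout libraries, again without overlap. This gene also lies on chromosome 8 (22192809 to 22220843), but its nearest tested neighbours had a median change of 0.00. Its log2 change was -0.35 both before and after centring, with limma adjusted p-values of 0.00368 and 0.00434.

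The Vps37 genes encode alternative subunits of ESCRT-I. None of the 4 was called, and Vps37c and Vps37a were the main forms, with 45.5% ± 2.58 and 36.0% ± 4.12 of the summed Vps37 level in control libraries (SD, n = 3). Vps37a, on chromosome 8, was at 8.50, 9.28 and 8.56 FPKM in control and 7.61, 8.19 and 6.74 FPKM in knockout libraries (log2 change -0.20, limma adjusted p = 0.0660). Without knockout replicate 2 it was called lower, at -0.26 (limma adjusted p = 0.0434). Vps37c had overlapping groups between 9.78 and 12.1 FPKM and a log2 change of -0.07. Vps37b and Vps37d were low, at 1.88 to 3.10 and 1.53 to 2.56 FPKM, and also overlapped. Control replicate 3 was the highest library for Vps37d, and without it the log2 change went from 0.17 to 0.32 and was called higher (limma adjusted p = 0.0316). Vps37b shares 32.9% of its annotated exon bases with Hip1r on the other strand, and Hip1r fell from 1.35 ± 0.162 to 0.634 ± 0.136 FPKM (SD, n = 3; limma adjusted p = 0.00341). How the authors counted shared reads is not given, and the part of such reads in the Vps37b values was not tested. Vps25, also an ESCRT-II gene, was at 0.0336 to 0.343 FPKM, between 1 and 10 reads per library, and was not tested. Of its exon bases 67.2% also belong to Ramp2 on the same strand. The part that the handling of shared reads has in the low Vps25 values was not tested.

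Promoter sequence from RefSeq (build GRCm38.p6) is shown for the 3 ESCRT genes that fell and, as a contrast, for Vps16 and Vps33a, members of the HOPS core that were not called. Each window holds the 250 bases before the RefSeq start, written 5′ to 3′ on the strand of the gene. Gene positions in this text come from GENCODE M21 and can differ from that start. By those positions the windows of Vps4a, Vps4b, Vps36 and Vps33a reach into the gene. Capitals mark matches, on either strand, to CACGTG, the E-box core that the lysosomal regulators TFEB and TFE3 bind, its extended form GTCACGTG, CGGAAG, an ETS-type core, or GGGCGG, a GC box. The windows are chr8:107031019-107031268 on the plus strand for Vps4a, chr1:106796726-106796975 on the minus strand for Vps4b, chr8:22192583-22192832 on the plus strand for Vps36, chr2:130424070-130424319 on the plus strand for Vps16 and chr5:123573016-123573265 on the minus strand for Vps33a.
Vps4a: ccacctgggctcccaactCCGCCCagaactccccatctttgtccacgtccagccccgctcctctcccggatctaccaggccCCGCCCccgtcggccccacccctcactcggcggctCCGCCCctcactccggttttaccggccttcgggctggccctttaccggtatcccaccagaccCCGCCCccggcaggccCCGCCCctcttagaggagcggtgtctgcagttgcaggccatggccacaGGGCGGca
Vps4b: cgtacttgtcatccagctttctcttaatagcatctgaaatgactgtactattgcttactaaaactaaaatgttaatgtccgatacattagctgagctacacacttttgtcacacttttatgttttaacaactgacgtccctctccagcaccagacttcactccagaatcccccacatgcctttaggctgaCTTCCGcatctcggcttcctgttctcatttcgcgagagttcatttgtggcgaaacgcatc
Vps36: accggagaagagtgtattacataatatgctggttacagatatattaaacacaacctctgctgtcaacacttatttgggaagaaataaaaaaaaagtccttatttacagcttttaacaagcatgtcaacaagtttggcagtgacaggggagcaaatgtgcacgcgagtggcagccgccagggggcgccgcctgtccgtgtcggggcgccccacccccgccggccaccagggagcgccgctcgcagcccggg
Vps16: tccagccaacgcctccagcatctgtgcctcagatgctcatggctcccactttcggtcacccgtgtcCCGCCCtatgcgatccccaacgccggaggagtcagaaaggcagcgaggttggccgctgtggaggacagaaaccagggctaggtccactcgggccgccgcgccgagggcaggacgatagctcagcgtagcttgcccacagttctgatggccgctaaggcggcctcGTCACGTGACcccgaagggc
Vps33a: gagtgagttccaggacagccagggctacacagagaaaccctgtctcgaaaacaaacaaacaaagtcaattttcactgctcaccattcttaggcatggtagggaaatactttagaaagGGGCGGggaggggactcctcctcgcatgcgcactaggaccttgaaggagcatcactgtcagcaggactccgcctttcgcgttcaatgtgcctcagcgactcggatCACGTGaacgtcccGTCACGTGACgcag

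The window of Vps4a held 6 GC boxes and that of Vps4b a single CGGAAG match, 60 bases before the start, and none of the 4 motifs was found in the window of Vps36. The 3 fallen ESCRT genes therefore had no searched motif in common. A window was found for 22 of the 34 Vps genes, with 3 windows for Vps52 and 2 each for Vps13d, Vps26a and Vps37c. A gene was counted if any of its windows matched, whereas the percentages are of single windows. CACGTG was present for 3 of the 22 genes, Vps16, Vps33a and Vps26a, and for 6.02% of all 32851 windows of the same length. Each of the 3 also held the GTCACGTG form, which overlaps the shorter motif and occurred in 1.85% of all windows. In Vps16 it lies 20 bases before the start, and in Vps33a a separate CACGTG begins 28 bases before the start. Of the other HOPS and CORVET genes, Vps18, Vps41 and Vps8 had a window, and none of these held CACGTG. Vps16 and Vps33a therefore do not stand for the group. CGGAAG was present for 5 of the 22 genes and in 13.6% of all windows, and GGGCGG for 14 of the 22 and in 32.7% of all windows. A match is a description of letters and does not show binding.

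HOPS and CORVET share the core subunits VPS11, VPS16, VPS18 and VPS33A; VPS39 and VPS41 complete HOPS, and VPS8 belongs to CORVET. None of the 6 tested members was called by limma (0 had an adjusted p under 0.05, and Vps16 alone had an unadjusted p under 0.05). Vps16 was the most abundant, at 20.8, 21.01 and 22.0 FPKM in control and 19.0, 19.1 and 19.3 FPKM in knockout libraries. Its groups did not overlap, and the log2 change of -0.15 (standard error 0.050) had a limma adjusted p of 0.0507; without knockout replicate 3 it was 0.0400. Vps33a, which encodes the subunit that clasps SNARE proteins, was at 10.8, 10.7 and 11.1 FPKM in control and 10.9, 9.72 and 9.48 FPKM in knockout libraries (log2 change -0.11, limma adjusted p = 0.217).

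Core genes Vps11 and Vps18 overlapped between groups, with log2 changes of 0.01 and 0.02. Vps11 ranged from 7.89 to 9.51 FPKM and Vps18 from 5.96 to 6.92 FPKM. Vps41 was at 7.86, 8.08 and 7.73 FPKM in control and 8.34, 8.88 and 8.10 FPKM in knockout libraries. The groups were adjacent without overlapping, and the log2 change of 0.09 was not called (limma adjusted p = 0.276). Vps39, the other HOPS-specific gene, ranged from 5.51 to 6.76 FPKM with overlapping groups (log2 change -0.04). Vps8 stayed below the filter, at 0.831, 0.681 and 0.856 FPKM in control and 0.666, 0.636 and 0.445 FPKM in knockout libraries, from 67 to 133 reads. Every knockout library of Vps8 lay below every control library, but the gene was not tested.

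Vps33b, the paralogue of Vps33a that works with VIPAS39 in the CHEVI complex, was the lesser form, at 2.97 to 3.35 FPKM with overlapping groups (log2 change -0.02, limma adjusted p = 0.810). It made up 23.0% ± 0.0650 of the sum of both Vps33 genes in control and 24.1% ± 1.44 in knockout libraries (SD, n = 3; exact permutation p = 0.4). Its neighbours had a median change of 0.15.

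GARP and EARP share VPS51, VPS52 and VPS53; VPS54 makes the complex GARP, and VPS50 makes it EARP. Of these 5 genes 3 fell, Vps51, Vps53 and the GARP-specific Vps54, and the median log2 change was -0.22. Vps51 measured 4.55, 4.48 and 5.55 FPKM in control and 3.89, 3.65 and 3.69 FPKM in knockout libraries. Vps53 was at 8.48, 8.18 and 9.74 FPKM in control and 7.497, 7.16 and 7.14 FPKM in knockout libraries. For both, the groups did not overlap and control replicate 3 was the highest library. Vps54 was at 15.5, 16.8 and 14.8 FPKM in control and 12.7, 13.2 and 13.9 FPKM in knockout libraries, with control replicate 2 highest.

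Log2 changes were -0.30 for Vps51 (standard error 0.081, limma adjusted p = 0.0213), -0.24 for Vps53 (0.071, limma adjusted p = 0.0287) and -0.22 for Vps54 (0.064, limma adjusted p = 0.0262). These calls lay close to the threshold. That of Vps51 was lost without control replicate 3 (limma adjusted p = 0.0556) or knockout replicate 2 (0.0612). For Vps53 leaving out any library but control replicate 2 ended the call, with adjusted p-values up to 0.0785. The call of Vps54 was lost without control replicate 1 or 2 or knockout replicate 1 or 2, with adjusted p-values up to 0.0869. On centring, Vps51 (chromosome 19, 6067842 to 6077231) had a log2 change of -0.37 (limma adjusted p = 0.0113). Centred values were -0.20 for Vps53 (0.0731) and -0.06 for Vps54 (0.520), both on chromosome 11. Vps51 shares 11.8% of its exon bases with Tm7sf2 on the same strand, which was at 2.66 ± 0.306 FPKM in control and 2.26 ± 0.246 FPKM in knockout libraries (SD, n = 3; limma adjusted p = 0.182).

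Vps52 and the EARP gene Vps50 were not called. Vps52 was at 10.7, 9.24 and 11.1 FPKM in control and 10.7, 9.95 and 9.42 FPKM in knockout libraries (log2 change -0.04, limma adjusted p = 0.736), and Vps50 ranged from 4.45 to 4.93 FPKM over all libraries (log2 change 0.00, limma adjusted p = 0.976). Vps54 was the more abundant of the complex-specific pair. Its share of the sum of Vps54 and Vps50 was 77.2% ± 0.372 in control and 74.1% ± 1.57 in knockout libraries (SD, n = 3; exact permutation p = 0.1, the smallest possible). Every knockout library was below every control library in that share.

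**Figure D2:**
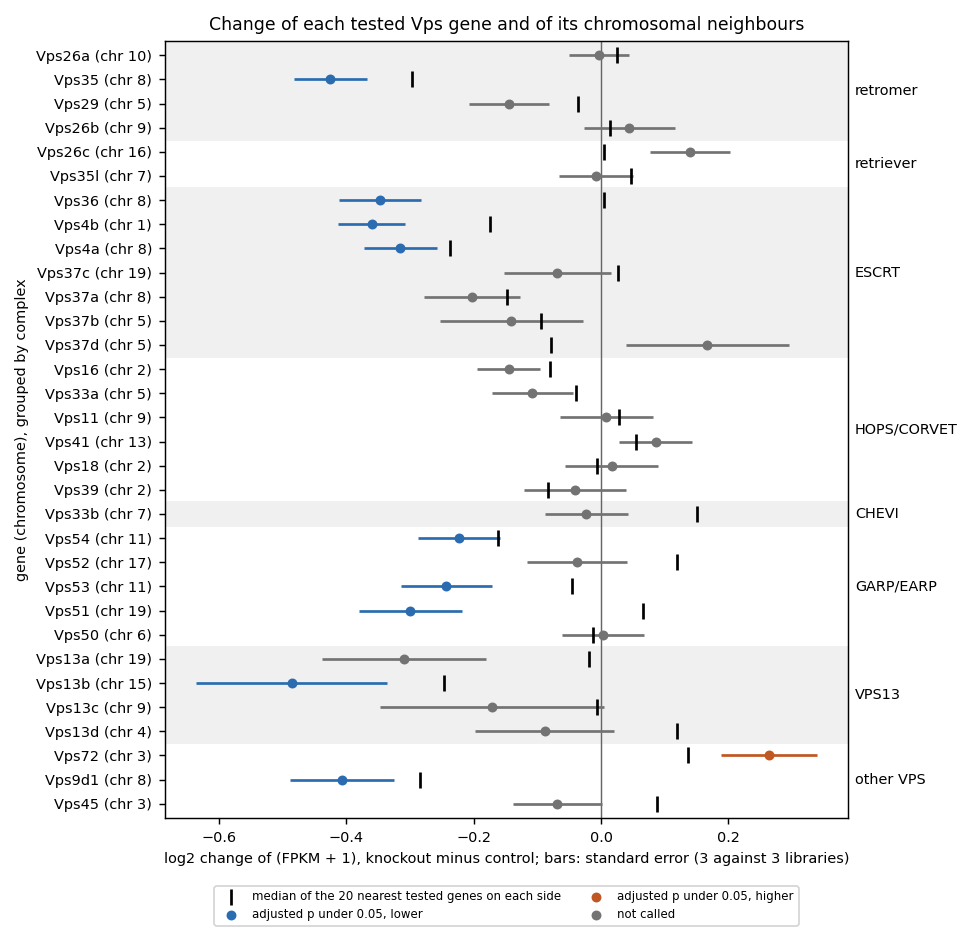
Log2 change of (FPKM + 1), knockout minus control, of the 32 tested Vps genes with the standard error as a bar, and the median change of its 20 tested neighbours to either side as a black tick. Vps35, Vps4a and Vps9d1 lie near ticks that are themselves below -0.2, whereas Vps36 and Vps51 lie well to the left of ticks at or above 0.

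The Vps13 genes encode very long proteins, and their annotated exons span 16299 bases for Vps13c to 24771 bases for Vps13d. Vps13b, mutated in Cohen syndrome and tied to the Golgi, was called lower. It measured 7.52, 8.08 and 7.49 FPKM in control and 6.15, 6.01 and 3.77 FPKM in knockout libraries. The groups did not overlap, but knockout replicate 3 was far below the other knockout libraries. The log2 change was -0.49 (standard error 0.150, limma adjusted p = 0.0411), against -0.30 (0.00722) without knockout replicate 3. The call was lost when any control library was left out (adjusted p between 0.0945 and 0.119) and on centring (log2 change -0.24, adjusted p = 0.284, limma throughout). The neighbours of Vps13b on chromosome 15 had a median change of -0.25.

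Knockout replicate 3 was the lowest library for all 4 Vps13 genes. Vps13a, the chorea-acanthocytosis gene, was at 10.9, 12.03 and 10.4 FPKM in control and 9.64, 10.1 and 6.87 FPKM in knockout libraries (log2 change -0.31, limma adjusted p = 0.0991; -0.15 without knockout replicate 3). Vps13c was at 5.34, 5.57 and 5.16 FPKM in control and 5.50, 5.65 and 3.16 FPKM in knockout libraries. Its log2 change of -0.17 (limma adjusted p = 0.487) turned to 0.05 without that library. Vps13d was at 1.91, 1.95 and 1.84 FPKM in control and 1.89, 2.06 and 1.30 FPKM in knockout libraries, and its change of -0.09 turned to 0.04. The median over the 4 genes was -0.24 with and -0.06 without knockout replicate 3.

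Long transcripts were low in that library in general. On the log2(FPKM + 1) scale, knockout replicate 3 minus the mean of knockout replicates 1 and 2 had a median of 0.10 over 2011 tested genes with under 2 kb of exon and of -0.23 over 212 genes with 16 kb or more. For the Vps13 genes the same difference was -0.47 for Vps13a, -0.57 for Vps13b, -0.66 for Vps13c and -0.37 for Vps13d. The part of exon length in the values of these genes was not tested.

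**Figure D3:**
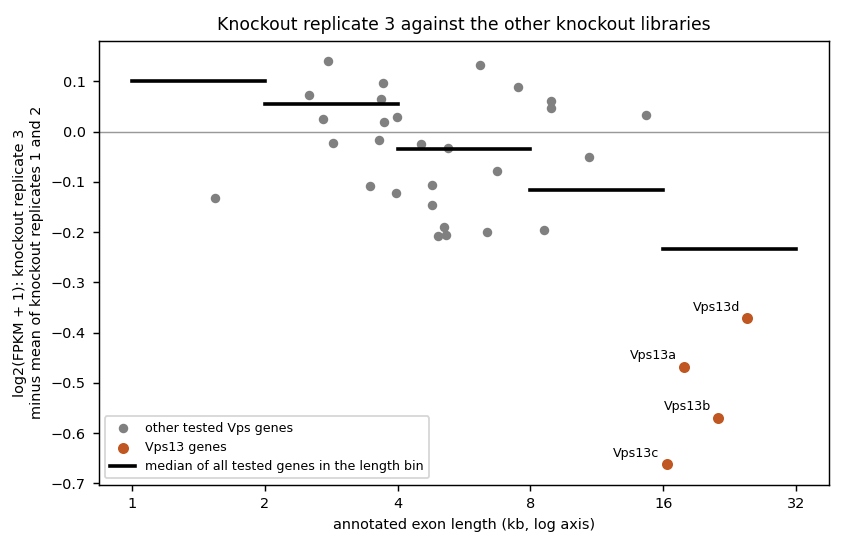
Knockout replicate 3 minus the mean of knockout replicates 1 and 2, in log2(FPKM + 1), against annotated exon length (kb, log axis) for the 32 tested Vps genes; black lines are medians of all tested genes in 5 length bins. The medians run from 0.10 for the shortest to -0.23 for the longest genes, and the 4 Vps13 genes lie between -0.37 (Vps13d) and -0.66 (Vps13c).

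Outside these complexes, Vps9d1, which encodes a protein with a VPS9 domain of the kind that activates RAB5, fell. It was at 3.72, 3.47 and 3.97 FPKM in control and 2.74, 2.73 and 2.24 FPKM in knockout libraries, without overlap (log2 change -0.41, standard error 0.081, limma adjusted p = 0.00549). Its chromosome 8 neighbours had a median change of -0.28, and the centred change of -0.12 was not called (limma adjusted p = 0.300). Vps72, named for a yeast sorting phenotype, encodes a chaperone of the histone variant H2A.Z and no endosomal protein. It rose from 12.2, 11.5 and 14.0 FPKM in control to 15.8, 14.7 and 15.1 FPKM in knockout libraries (log2 change 0.26, standard error 0.076, limma adjusted p = 0.0269). That call was lost without control replicate 1 or 2 or knockout replicate 1, with limma adjusted p-values up to 0.0973. Vps45, the SNARE regulator of early endosomes, ranged from 3.30 to 3.92 FPKM and overlapped (log2 change -0.07, limma adjusted p = 0.477).

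By complex, the median log2 change was -0.20 for the tested ESCRT members, -0.22 for GARP and EARP, -0.24 for Vps13, -0.07 for retromer, 0.07 for retriever and -0.02 for HOPS and CORVET. Called lower were 3 of 7, 3 of 5, 1 of 4, 1 of 4, 0 of 2 and 0 of 6 members in the same order, beside 18.7% of all tested genes. After centring on neighbours the medians were -0.08, -0.16, -0.22, -0.07, 0.04 and 0.00. Without knockout replicate 3, retromer had 2 lower calls (Vps29 added), HOPS and CORVET 1 (Vps16), and GARP and EARP 2 (Vps53 lost). The share of all tested genes called without that library was not counted, and the difference between complexes was not tested.

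Partners of these complexes that lack a Vps name were read from lists of 95 genes, of which 94 had a row and 92 were tested. Over all of them 21 were lower and 9 higher, with a median log2 change of -0.06. These are 22.8% and 9.78% of the 92, beside 18.7% and 16.9% of all tested genes. After centring 10 were lower and 7 higher. The shares over all tested genes hold for the uncentred fit with all 6 libraries, also for the lists that follow. No such shares were counted for the centred and leave-one-out fits. Without knockout replicate 3, 24 partners were lower and 13 higher. Lower and higher were then 9 and 5 for ESCRT, 3 and 2 for retromer and 4 and 0 for Commander. For HOPS and CORVET they were 4 and 4, and for GARP and EARP 1 and 0. The cargo receptors had 1 and 1, and the class III phosphatidylinositol 3-kinase 2 and 1. Partner genes named below for a centred or leave-one-out value, or as not called, were picked after their values were seen. Among 22 ESCRT partners 7 were lower and 3 higher. Mvb12a, an ESCRT-I subunit gene, fell from 11.8 ± 1.80 to 6.98 ± 0.638 FPKM (SD, n = 3; log2 change -0.68, limma adjusted p = 0.00152). Chmp1a and Chmp4c, genes of ESCRT-III subunits, had log2 changes of -0.45 and -0.40. Stam, an ESCRT-0 gene, and Tsg101 and Ubap1, ESCRT-I genes, rose, with log2 changes of 0.25, 0.20 and 0.20. The other ESCRT-0 genes, Hgs and Stam2, were not called (0.03 and -0.07), and neither was Snf8 of ESCRT-II (-0.11; -0.17 without knockout replicate 3, limma adjusted p = 0.0410). Mvb12a and Chmp1a lie on chromosome 8. After centring, Mvb12a, Chmp4c and Stam were still called, at -0.42, -0.41 and 0.23, while Chmp1a (-0.19), Tsg101 (0.11) and Ubap1 (0.15) were not. In all 3 partners were then lower, Chmp2a (-0.39) among them, and 2 higher, with Chmp4b (0.23) gained. The call of Tsg101 was lost without control replicate 1 or 2 or knockout replicate 2 (limma adjusted p up to 0.0820), and that of Ubap1 without control replicate 3 or knockout replicate 2 (up to 0.0602).

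For retromer, 3 of 14 tested partners were lower and none higher. Washc5, which encodes the strumpellin subunit of the actin-nucleating WASH complex that retromer recruits, fell from 50.4 ± 1.35 to 38.8 ± 2.55 FPKM (SD, n = 3; log2 change -0.37, limma adjusted p = 0.00190). Tbc1d5, a RAB7-inactivating partner of VPS29, and the sorting nexin gene Snx12 had log2 changes of -0.30 and -0.22. Of these, Tbc1d5 alone was called after centring (-0.40, limma adjusted p = 0.00944), with Washc5 at -0.13 and Snx12 at -0.07. Centring turned the balance of this list, since the sorting nexin genes Snx3 and Snx5 were then called higher, at 0.23 and 0.31 (limma adjusted p = 0.0288 and 0.0209). Uncentred and without knockout replicate 3, Snx27 (0.24, limma adjusted p = 0.00592) and Washc2 (0.19, 0.0366) were called higher instead. Snx3 and Snx5 were not called in that fit (limma adjusted p = 0.125 and 0.148). Snx27 and Washc2 were not called after centring (limma adjusted p = 0.625 and 0.686). Leaving out any control library ended the call of Tbc1d5 (limma adjusted p up to 0.0722), and leaving out control replicate 1 ended that of Snx12 (0.0575). The cargo receptor genes Sort1 and Sorl1 moved in opposite directions at low levels. Sort1 rose from 0.956 ± 0.101 to 1.71 ± 0.0553 FPKM and Sorl1 fell from 1.25 ± 0.0535 to 0.379 ± 0.130 FPKM (SD, n = 3), with limma adjusted p-values of 0.00202 and 0.000687. Both fall below the level set for naming partner genes and were picked after their values were seen. The other cargo receptor genes on the list, Igf2r and M6pr, were not called. Centred on its neighbours, M6pr was called lower, at -0.20. Its uncentred change was -0.00, and its neighbours had a median change of 0.20.

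The HOPS and CORVET partners held 3 higher and 3 lower of 20 genes. Rab7, the late endosomal GTPase gene to which HOPS binds, rose from 68.5 ± 0.279 to 79.8 ± 7.22 FPKM (SD, n = 3; log2 change 0.21, limma adjusted p = 0.0396), and Stx17 and Rab5b had changes of 0.27 and 0.18. Lower were Mon1b and Ccz1, genes of the complex that activates RAB7, and the SNARE gene Vti1b, with changes of -0.47, -0.22 and -0.36. None of these 6 was called after centring on neighbours, when the changes were 0.04 for Rab7, 0.16 for Stx17, 0.13 for Rab5b, -0.23 for Mon1b, -0.14 for Ccz1 and -0.11 for Vti1b. Called after centring instead were Vipas39, higher (0.30, limma adjusted p = 0.0176), and Mon1a, lower (-0.30, 0.0473). Uncentred, Vipas39 changed by 0.04 and Mon1a by -0.19. Their neighbours had median changes of -0.26 and 0.11. The higher calls also depended on single libraries. Rab7 lost its call without any control library or knockout replicate 2 (limma adjusted p up to 0.114), Stx17 without control replicate 3 or knockout replicate 1 or 2 (up to 0.0629) and Rab5b without control replicate 1 or knockout replicate 1 or 2 (up to 0.102). Of 13 GARP and EARP partners 3 were lower and none higher: Arl5b, a GTPase gene of the GARP-recruiting kind (-0.31), the golgin gene Gcc2 (-0.25) and Eipr1, the EARP partner gene (-0.24). Arl5b was still called after centring (-0.33, limma adjusted p = 0.0216), while Gcc2 (-0.22) and Eipr1 (-0.03) were not. The SNARE gene Stx6 was then called higher (0.26, limma adjusted p = 0.00979). Uncentred, Stx6 changed by -0.07, with every knockout library below every control library. The neighbours of Stx6 had a median change of -0.32. The call of Arl5b was lost without control replicate 1 or 2 or knockout replicate 3 (limma adjusted p up to 0.0728). That of Gcc2 was lost without these or knockout replicate 1 (up to 0.134), and that of Eipr1 without any library but knockout replicate 3 (up to 0.155).

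Commander genes, which surround retriever, held 2 lower and 1 higher of 12 tested. Commd10 fell from 26.2 ± 0.469 to 18.5 ± 1.88 FPKM (SD, n = 3; log2 change -0.48, limma adjusted p = 0.00120), Ccdc93 had a change of -0.34 and Commd6 one of 0.22. Of 7 genes of the class III phosphatidylinositol 3-kinase, which makes the lipid that marks early endosomes, Pik3c3, the catalytic subunit known in yeast as Vps34, and Uvrag fell (-0.24 and -0.28) and Atg14 rose (0.28). Commd10 and Uvrag were still called after centring, at -0.33 and -0.44, and Ccdc93 (-0.08), Commd6 (0.19), Pik3c3 (-0.05) and Atg14 (0.08) were not. Commd6 lost its call without any library but knockout replicate 2 (limma adjusted p up to 0.105), Pik3c3 without control replicate 2 or knockout replicate 1 (up to 0.0646) and Atg14 without control replicate 1 or knockout replicate 1 (up to 0.0641).

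**Figure D4:**
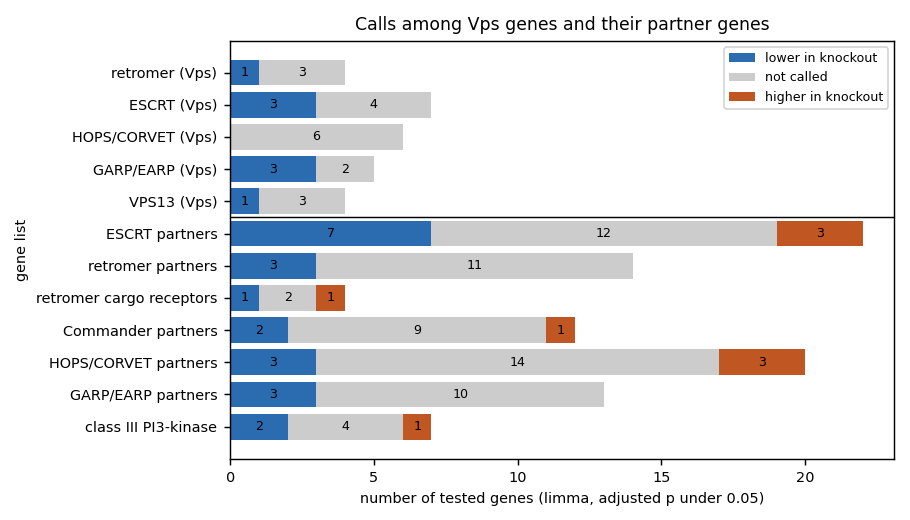
Number of tested genes called lower, not called or called higher in knockout libraries (limma, adjusted p under 0.05) in 5 groups of Vps genes, above the line, and 7 lists of partner genes, below it. GARP and EARP with 3 of 5 and ESCRT with 3 of 7 hold the most lower calls among the Vps groups, and no HOPS or CORVET member is called.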

How the data were processed

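The authors deposited 1 table of FPKM for 6 libraries and 23644 Ensembl genes; the unit was read from the values. Per the submitters' processing notes, HTSeq 0.6.0, TopHat2 2.0.12 and TopHat, with Bowtie2, Bowtie and CASAVA, were run for mm10. What each tool did, which annotation and strand setting were used and how reads shared by overlapping genes were treated is not given in the sources used. Symbols, positions and union exon lengths came from GENCODE M21 (GRCm38), which gave a symbol for 23587 rows.

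Multiplied by exon length, between 91.9% and 92.2% of values up to 500 reads were whole multiples (within 0.02) of 1 step per library, which gave the read totals. Among the Vps genes 27 of 34 came out whole in every library, and tested members had between 42 and 5946 reads. No replicate pair matched within counting noise: the chi-square was at least 3.02 per degree of freedom. It was 19.0 and 17.6 for knockout replicate 3 against knockout replicates 1 and 2. For control replicate 2 against 3 it was 10.5, and for the remaining pairs at most 4.46.

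A gene entered the test if 3 or more of 6 libraries reached 1 FPKM. All such genes were fitted together on log2(FPKM + 1) by limma 3.58.1 (R 4.3.3), with a robust eBayes trend, Benjamini-Hochberg adjustment and a threshold of 0.05; the scale understates changes of low genes. The fit was also run on simulated counts with equal noise in all libraries and no trend with exon length or chromosome. That run does not cover such features of these data. Other scripts used Python 3.11.15, pandas 2.3.3, numpy 2.4.6 and matplotlib 3.10.9.

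Every Vps gene is named. Partner genes are named when called, if the higher group mean reaches 2 FPKM, up to 3 per direction and list, and exceptions are marked. The members and lists were chosen with earlier results of these data known. Alternatives were other pseudocounts, filters, scalings, eBayes settings, a 1.5-fold threshold test, a replicate block, centring on neighbours and leaving out each library.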

Additional observations from a re-analysis of the deposited data

How the results depend on the processing

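Of the 9 Vps genes called lower, 5 kept their call whichever library was left out (Vps35, Vps4a, Vps4b, Vps36 and Vps9d1), and 3 kept it after centring on neighbours (Vps4b, Vps36 and Vps51). The number called lower was 6 to 10 when 1 library was left out. It was 5 without a filter on low values, 3 after centring and 0 in the test against a 1.5-fold change. The number called higher was 0 to 2 when 1 library was left out, and 0 in each of the other 3 settings. For these settings the share of all tested genes called was not counted. The ESCRT median was -0.078 after centring, the retriever median 0.14 at a filter of 5 FPKM, which left 1 gene, and the retromer median -0.054 with a pseudocount of 5. With 1 library left out, medians ranged from -0.092 to -0.061 for retromer and from -0.055 to 0.045 for HOPS and CORVET, the last without knockout replicate 3.

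The reversed directions all belonged to genes that were not called. Centring gave -0.020 for Vps11 and 0.043 for Vps39. Quantile normalization gave 0.015 for Vps33b and 0.026 for Vps35l, and median-of-ratios rescaling gave 0.00056 for Vps35l and 0.0064 for Vps26a. Leaving out 1 library gave -0.053 to 0.013 for Vps33b, -0.025 to 0.042 for Vps50, -0.11 to 0.0075 for Vps52, -0.043 to 0.078 for Vps11, -0.026 to 0.065 for Vps18, -0.095 to 0.024 for Vps39, -0.29 to 0.050 for Vps13c, -0.17 to 0.035 for Vps13d, -0.028 to 0.0047 for Vps35l and -0.020 to 0.0075 for Vps26a. Apart from the constructions named, the cause was not tested.

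With the replicate number as a replicate block, 11 Vps genes were lower and 1 higher, Vps37a and Vps13a being added. The share of all tested genes called in that fit was not counted. The deviations of same-numbered libraries correlated at -0.06, 0.15 and 0.10. Libraries 2 and 3 correlated best with their own number and libraries 1 did not, and the labels name nothing that same-numbered libraries share, so they were not treated as pairs. Vps25 (1 to 10 reads per library) and Vps8 (67 to 133 reads) had levels under 1 FPKM and were not tested.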
